A study of Drosophila melanogaster with 13 samples.

Results

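Accessible DNA of the eye-antennal disc of wild type *Drosophila melanogaster* was compared between the FRT82 strain and 3 other wild type strains over all merged peaks. FRT82 was measured in 1 ATAC-seq and 1 FAIRE-seq sample, and the others were DGRP-208 and Optix-GFP (ATAC-seq) and CantonS (FAIRE-seq). These 5 samples were taken from 13 in the series by their strain and assay labels, and the comparison covered 36506 of the 36507 merged peaks, because 1 merged peak has no count. All 5 came from larvae at the wandering stage of the third instar, and all are labelled as controls. The label of FRT82 gives the genotype as w;;FRT82, while the stock list of the study writes y, w; FRT82. The ATAC-seq sample titled RAL-208 carries the genotype DGRP-208, an isogenic line, and the genotypes of the remaining strains are given only as Optix-GFP and CantonS. ATAC-seq used nuclei of 10 discs and FAIRE-seq used 200 discs. Each strain gave 1 library per technique, so that strain, animals and library cannot be told apart, and p-values measure the spread between these 5 libraries. The labels do not give the sex of the larvae.

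FRT82 is a target site of the FLP recombinase inserted on the right arm of chromosome 3. Crosses between flies with the same site yield clones of cells that are homozygous for a mutation on that arm. The eye-antennal disc is the larval epithelium that forms the eye, antenna and head cuticle of the adult fly. Its regulatory DNA is open where nucleosomes are displaced. ATAC-seq marks such DNA by the insertion of sequencing adapters by a transposase, and FAIRE-seq by its recovery from fixed chromatin in the aqueous phase of a phenol extraction. Both count reads, and a count near 0 does not tell closed chromatin, DNA that the strain lacks and reads that could not be placed apart. Likewise, fewer cells with an open site and less opening per cell cannot be told apart in a whole disc.

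In ATAC-seq, 8256157 reads of FRT82 fell in the merged peaks, against 7851617 of DGRP-208 and 7104145 of Optix-GFP. In FAIRE-seq, FRT82 had 2375435 reads and CantonS 5792887. The FRT82 FAIRE-seq library was therefore the shallowest, with 32593 peaks of at least 10 reads, against 36335 in CantonS. No 2 libraries of a technique held the same counts within counting noise (chi-square 4.23 to 12.2 times its degrees of freedom), which bears only on whether a library was deposited more than once. Peaks that the study's region tables pair with *eya*, *so* and *dac*, genes of the retinal determination network, had reads in all 5 libraries. The peak of *eya*, a phosphatase and transcriptional coactivator, had 40.7, 32.2 and 40.9 CPM (counts scaled to a common library size with TMM factors) in the ATAC-seq libraries of FRT82, DGRP-208 and Optix-GFP. It had 21.7 and 20.8 CPM in the FRT82 and CantonS FAIRE-seq libraries, so that the strains overlapped in ATAC-seq and were close in FAIRE-seq. The region tables list only regions that, with their gene, changed in the tumors against wild type, and genes outside them were not analysed here. Of the 18 markers listed for other cell types, only *moody*, a receptor of the glial blood-brain barrier, had a paired peak, with 89.2 CPM in the FRT82 ATAC-seq library against 97.2 and 142 CPM in the others. In FAIRE-seq the *moody* peak had 54 CPM in FRT82 and 50.4 CPM in CantonS.

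Few merged peaks differed between FRT82 and the other strains beyond the spread of these libraries. At an adjusted p of 0.01 (edgeR quasi-likelihood test with technique as a term and Benjamini-Hochberg adjustment over 36506 peaks), 3 peaks were higher and 22 were lower in FRT82. These 25 peaks are 0.0685% of those tested, with 0.00822% higher and 0.0603% lower. At an unadjusted p under 0.05 there were 1812 peaks, or 4.96%, of which 821 were higher and 991 lower. In the same fit, the difference between FAIRE-seq and ATAC-seq passed the threshold in 8475 peaks (23.2%). The counts of calls depended on single libraries. Without the FRT82 ATAC-seq library 3 peaks were higher and 7 lower, of which only 1 and 6 were among the 25, and without the FRT82 FAIRE-seq library 23 and 45. Leaving out CantonS gave 24 higher and 45 lower, leaving out Optix-GFP 14 and 40, and leaving out DGRP-208 5 and 27. Where 1 library of a group or technique remained, it was assumed to vary like the others. Leaving out CantonS or the FRT82 FAIRE-seq library left 1 FAIRE-seq library, which the technique term took up. Both settings thus made the same comparison, FRT82 against DGRP-208 and Optix-GFP in ATAC-seq alone. Without the technique term no peak passed and 212 had an unadjusted p under 0.05.

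Of the 22 peaks called lower in FRT82, 18 lay in only 2 stretches, at the start of the deposited peaks of arm 3L and on the X chromosome. Another 4 lay outside both. Merged peaks were grouped into such blocks after their values were seen, as at least 3 consecutive peaks in which FRT82 stayed under 10% of the mean CPM of the other strains in both techniques. The whole genome held 42 peaks under that level in both techniques, and 38 of them formed the 2 blocks. The same rule applied to single libraries gave 2 runs in the FRT82 ATAC-seq library, 3 in the FRT82 FAIRE-seq library, 2 in DGRP-208, 4 in Optix-GFP and 0 in CantonS. For DGRP-208 and Optix-GFP, the mean they were set against included the FRT82 ATAC-seq library. Their runs from 2R 937196 lay where that library was high, with 1250 CPM in the first peak against 5.03 and 14.2 CPM. Those runs therefore reflect a high FRT82 level. Runs of the other strains were shorter, spanning between 1.3 and 7.1 kb, against 34.5 and 124.9 kb for the blocks of FRT82. Of the 25 called peaks, 19 had another called peak within 50 kb on the same arm, and the other 6 lay 838 to 17300 kb from the nearest.

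**Figure D1:**
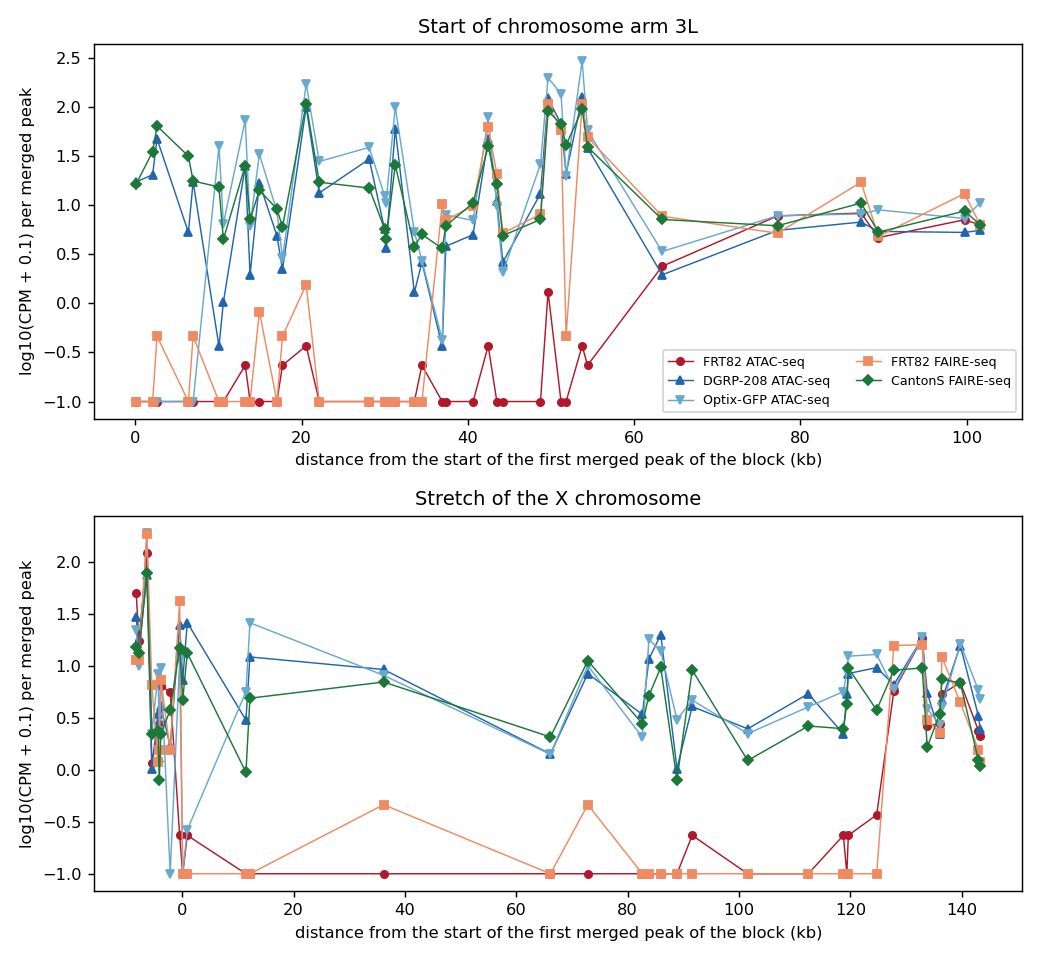
Level of each merged peak (log10 of CPM plus 0.1, y axis) against its distance in kb from the first peak of the block (x axis), in the 5 wild type libraries, at the start of arm 3L and on the X chromosome. Both FRT82 libraries sit near the bottom over the first 20 peaks of 3L and over 18 peaks on X, and on 3L the FRT82 FAIRE-seq library returns to the level of the others before the FRT82 ATAC-seq library does.

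The block on 3L ran from 19795 to 54325 (dm3) and held 20 merged peaks with a summed width of 6020 bp. The FRT82 ATAC-seq library had 5 reads in all 20 peaks together, DGRP-208 had 2817 and Optix-GFP 3284. The FRT82 FAIRE-seq library had 9 reads and CantonS 3033. Both FRT82 libraries were thus far below every other strain. After scaling, FRT82 had 0.15% of the level of the other ATAC-seq libraries (95% exact counting interval 0.0488 to 0.351%) and 0.763% of that of CantonS (0.349 to 1.45%). Such intervals cover counting error only, since the reads carry no molecular identifiers. In 13 of the 20 peaks both FRT82 libraries were at 0 reads, and no peak had more than 2 reads in the FRT82 ATAC-seq or 4 in the FRT82 FAIRE-seq library. The authors' peak lists had no peak over this block in either FRT82 sample, while they had peaks over 10 of the 20 in DGRP-208, 12 in Optix-GFP and 10 in CantonS.

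The test called 8 of the 20 peaks of this block lower. Without the FRT82 ATAC-seq library it called 4, without Optix-GFP 16 and without DGRP-208 15. The one at 3L 50810 to 51296 had 0 reads in the FRT82 ATAC-seq library, 451 in DGRP-208 and 607 in Optix-GFP, with 0 in FRT82 and 181 in CantonS by FAIRE-seq. FRT82 was therefore at least 197-fold lower in ATAC-seq and at least 23.5-fold lower in FAIRE-seq, counting a 0 as 3 reads per library (adjusted p = 3.01e-06, edgeR). The peak at 47735 to 48115 also had 0 reads in both FRT82 libraries, against 221 and 236 in the DGRP-208 and Optix-GFP ATAC-seq libraries and 105 in CantonS. Its level was at least 84.2-fold lower in ATAC-seq and at least 13.6-fold lower in FAIRE-seq. The widest peak of the block, at 39872 to 40815, kept a few reads, with 2 against 751 and 1050 in ATAC-seq and 4 against 757 in FAIRE-seq. It was lower by 7.62 ± 0.55 (SE) on the log2 scale. In these 3 peaks no library of FRT82 overlapped with another strain. The widest peak was also the only one of the block with a CTCF peak over it, CTCF being a factor that binds insulators.

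The 5 peaks at the outer end of this block, from 19795 to 26917, were near 0 in a further strain. Optix-GFP had 0 reads in all 5 together, as did the FRT82 ATAC-seq library, while DGRP-208 had 808. In FAIRE-seq, FRT82 had 2 reads and CantonS 1163. Optix-GFP and FRT82 therefore overlapped there, and none of the 5 peaks passed the test. The peak at 29700 to 30004 showed another pattern, with 242 reads in Optix-GFP, 2 in DGRP-208 and 0 in FRT82 by ATAC-seq. In the remaining 14 peaks of the block, which include the 8 calls, both DGRP-208 and Optix-GFP had reads.

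Beyond the block, the 2 FRT82 libraries differed from each other. From 56647 to 74351 on 3L, 12 merged peaks had 14 reads in all in the FRT82 ATAC-seq library, 3437 in DGRP-208 and 5106 in Optix-GFP. The FRT82 FAIRE-seq library had 1222 reads there and CantonS 2972. FRT82 was at 0.301% (0.164 to 0.505%) of the others in ATAC-seq and at 106% (98.9 to 113%) of CantonS in FAIRE-seq. The 12 peaks were chosen from these same values. They are the part outside the block of the run in which the FRT82 ATAC-seq library stayed under 10% of the other strains. Their low ATAC-seq level was thus set by the choice, and their difference between techniques follows from it in part. Both are a description only. Among these 12 peaks, 7 passed the test for a strain difference that differs between techniques (edgeR interaction term). At 73180 to 73899 FRT82 had 2 reads against 944 and 1790 by ATAC-seq, but 292 against 669 by FAIRE-seq. The difference between techniques there was 9.70 ± 0.97 (SE) on the log2 scale (adjusted p = 1.06e-06, edgeR). Only the peak at 71408 to 71809 was near 0 in both, with 0 reads against 157 and 121 in ATAC-seq and 1 against 289 in FAIRE-seq. It was called lower (adjusted p = 5.64e-06, edgeR). At 83080 all libraries had reads again, with 17 in FRT82 against 14 and 20 in ATAC-seq and 21 against 50 in FAIRE-seq.

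The block on X, from 2690874 to 2815736, held 18 merged peaks with a summed width of 4096 bp. FRT82 had 6 reads in all of them by ATAC-seq, DGRP-208 1054 and Optix-GFP 840. By FAIRE-seq FRT82 had 2 reads and CantonS 667. FRT82 was at 0.581% (0.213 to 1.27%) of the other strains in ATAC-seq and at 0.771% (0.0932 to 2.8%) of CantonS in FAIRE-seq. Both FRT82 libraries were at 0 in 11 of the 18 peaks, and 10 of the 18 were called lower. Those calls were lost without the FRT82 ATAC-seq library. That fit sets the FRT82 FAIRE-seq library, the shallowest, against CantonS alone. The loss therefore does not tell a weaker difference from a lack of depth. A fit of all 11 open chromatin libraries called 4. The authors' lists had no peak there in FRT82, against 7 of 18 in DGRP-208, 10 in Optix-GFP and 2 in CantonS. CTCF peaks overlapped 3 of the 18.

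The called peak with the most reads in the X block lay at 2776597 to 2777035. It had 0 reads in both FRT82 libraries, against 150 in DGRP-208, 84 in Optix-GFP and 68 in CantonS. FRT82 was at least 41.7-fold lower in ATAC-seq and at least 8.81-fold lower in FAIRE-seq (adjusted p = 7.48e-05, edgeR, and 0.0243 without the FRT82 ATAC-seq library). At 2702885 to 2703204 both FRT82 libraries were at 0 as well, against 91, 158 and 34 reads, which is at least 47-fold lower in ATAC-seq and at least 4.41-fold lower in FAIRE-seq. The first 2 peaks of the block were also near 0 in Optix-GFP, with 0 and 1 reads, against 55 and 196 in DGRP-208. In both of these, Optix-GFP and FRT82 overlapped.

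The borders of the X block were narrow. The last peak before it, at 2690019 to 2690830, ended 43 bp from the block and had 1 read in the FRT82 ATAC-seq library, 186 in DGRP-208 and 69 in Optix-GFP. The same peak had 115 reads in the FRT82 FAIRE-seq library and 105 in CantonS. The FRT82 libraries were again on different sides, and the difference between techniques was 8.40 ± 1.09 (SE) on the log2 scale (adjusted p = 8.01e-06, edgeR). On the other side the peak at 2818568 to 2818773, 2831 bp away, had 42 reads in FRT82 against 49 and 36 in ATAC-seq, and 43 against 64 in FAIRE-seq. The nearest merged peak with a paired gene was that of *rst*, which encodes an adhesion molecule of the immunoglobulin superfamily that sorts cells in the pupal eye. It lay 39.5 kb beyond the block, with 88 reads in FRT82 against 147 and 82 in ATAC-seq and 23 against 65 in FAIRE-seq. Its log2 difference was -0.34 ± 0.35 (SE, adjusted p = 0.975, edgeR). In the Release 6 annotation of RefSeq, used here for gene order only, 17 protein-coding genes separate *rst* from *w*, the gene of an eye pigment transporter whose symbol stands in the FRT82 genotype. The dm3 positions of these genes were not analysed here.

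The 6 other open chromatin libraries, which the comparison did not use, were set beside the blocks. The 4 tumor libraries carry FRT82 chromosomes in their genotype, from a cross of an eyFlp parent, which brings act>y+>Gal4, UAS-GFP and an FRT82 arm with Tub-Gal80, to a UAS-RasV12 parent with FRT82 and scrib2, both y and w. The 2 Upd libraries come from GMR-gal4 crossed to UAS-UPD:GFP. In the 3L block, the tumors had 238 to 392 CPM and the Upd discs 224 and 260 CPM, against 0.672 CPM in the FRT82 ATAC-seq and 3.26 CPM in the FRT82 FAIRE-seq library. In the X block, the tumors had only 17.2 to 38.3 CPM, against 94 to 140 CPM in the other wild types. The Upd discs had 160 and 215 CPM, above every wild type library. Tumor libraries thus lay between FRT82 and the other wild types in the X block. In the 3L block they lay far above FRT82, but not at every peak near the other wild types, as the peak at 50810 had 3.44 to 12.9 CPM in the tumors and 25.5 to 99.3 CPM in the other wild types. At the peak bordering the X block, the tumors had 457 to 2395 reads, more than any wild type library.

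**Figure D2:**
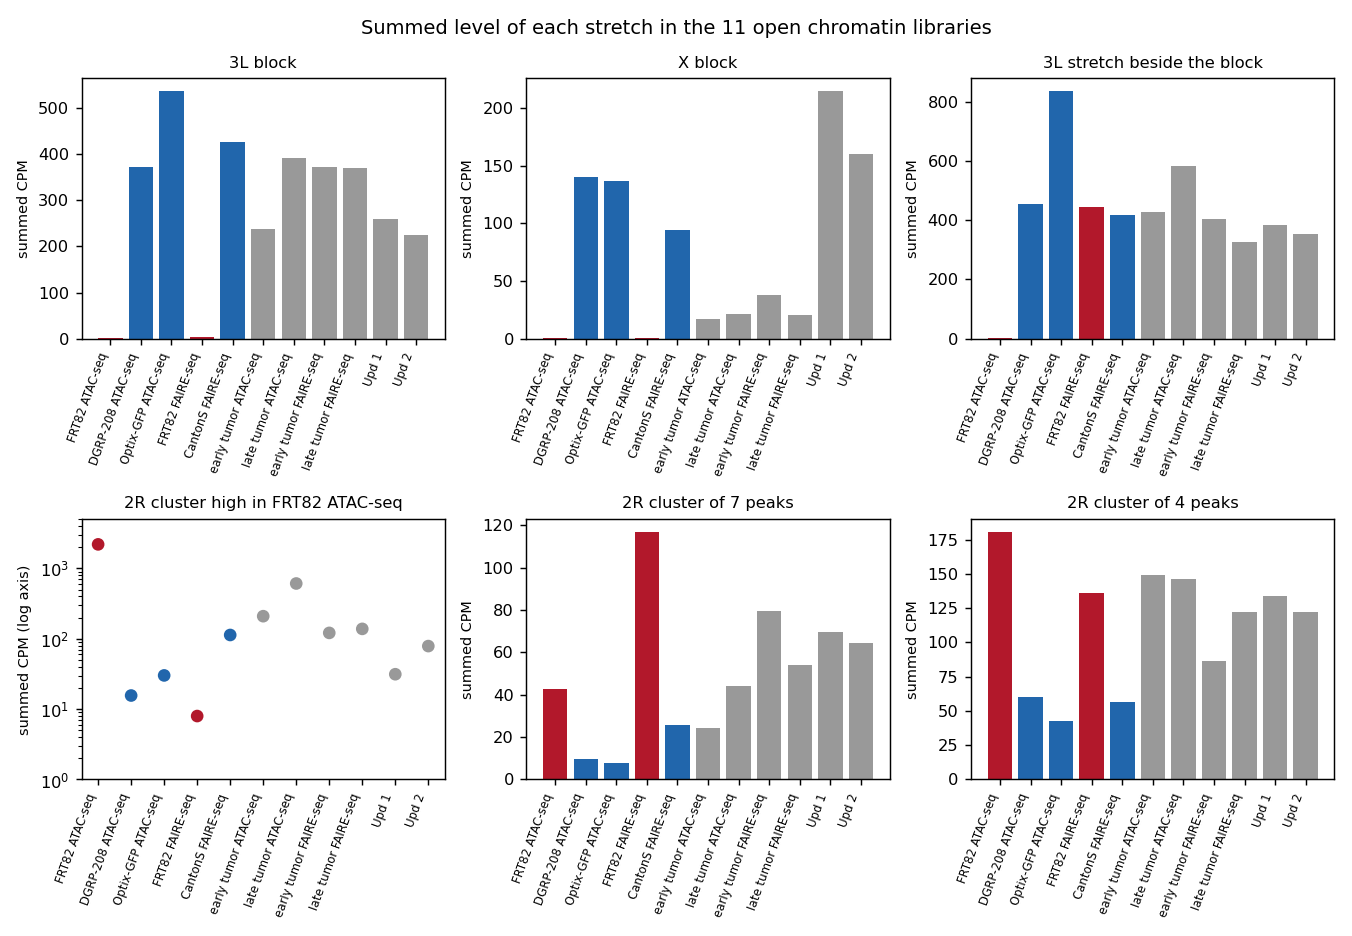
Summed level (CPM) of 6 stretches of merged peaks in each of the 11 open chromatin libraries, with FRT82 in red, the other wild types in blue and tumor and Upd discs in grey. FRT82 is near 0 in both techniques in the 3L and X blocks, is near 0 in ATAC-seq only in the 3L stretch beside the block, and is high in ATAC-seq only in 1 cluster of 2R (points on a log axis).

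Outside the blocks, 4 peaks were called lower, among them the peak at 3L 71408. The peak at 3L 3027797 to 3028011 had 0 reads in both FRT82 libraries, against 51 in DGRP-208, 95 in Optix-GFP and 35 in CantonS. It was at least 27.7-fold lower in ATAC-seq and at least 4.54-fold lower in FAIRE-seq (adjusted p = 0.00174, edgeR, and 0.313 without the FRT82 ATAC-seq library). Its libraries did not overlap. At 2L 4105413 to 4105539 FRT82 had 1 read against 55 and 44 in ATAC-seq and 2 against 35 in FAIRE-seq. The peak at 2L 21426866 to 21426989 had 0 reads in all 3 ATAC-seq libraries, so that its call rested on FAIRE-seq alone, with 7 reads in FRT82 and 457 in CantonS.

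The peaks higher in FRT82 were fewer. The one at X 13896 to 14007, 112 bp wide, had 56 reads in the FRT82 ATAC-seq and 51 in the FRT82 FAIRE-seq library, and 0 in DGRP-208, Optix-GFP and CantonS. FRT82 was at least 15.3-fold higher in ATAC-seq and at least 43.7-fold higher in FAIRE-seq (adjusted p = 3.04e-05, edgeR). With the Wald test of DESeq2 the adjusted p was 1, and the authors' lists had no peak there in either FRT82 sample. No other wild type library had a read there, while the tumors had 48 to 146 reads and both Upd libraries 15.

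At 2R 157799 to 158740, FRT82 had 622 reads against 133 and 72 in ATAC-seq and 185 against 133 in FAIRE-seq. In CPM this was 83.6 against 17.6 and 11.8, and 67 against 18.7, so that the groups did not overlap. It rose by 2.24 ± 0.28 (SE) on the log2 scale in FRT82 (adjusted p = 0.000758, edgeR), and the adjusted p was 0.596 without the FRT82 ATAC-seq library. The 3 peaks after it, to 160233, were grouped with it because they also had positive differences with an unadjusted p under 0.05 (edgeR). The 4 together held 3.45 times (3.15 to 3.78) the level of the other strains in ATAC-seq and 2.41 times (2.08 to 2.78) in FAIRE-seq. In the same 4 peaks the tumors had 86.3 to 149 CPM and the Upd discs 134 and 122 CPM. The other wild types had 42.5 to 60.5 CPM, so that a level above theirs was not particular to FRT82.

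The last call higher in FRT82, at 2R 995748 to 996280, had 95 reads in FRT82 against 21 and 10 in ATAC-seq and 90 against 36 in FAIRE-seq. It rose by 2.60 ± 0.36 (SE) on the log2 scale (adjusted p = 0.0019, edgeR). The call was lost without the FRT82 ATAC-seq library, where the difference was 2.71. It was also lost without the FRT82 FAIRE-seq library or CantonS, which both leave ATAC-seq alone to compare, with a difference of 2.50. This peak was the fifth of 7 consecutive peaks from 993214 to 997139 with positive differences between 1.83 and 3.08 on the log2 scale. Together they had 317 reads in FRT82, 73 in DGRP-208 and 48 in Optix-GFP by ATAC-seq, and 324 in FRT82 and 181 in CantonS by FAIRE-seq. FRT82 held 4.81 times (3.89 to 5.98) the level of the other ATAC-seq libraries and 4.60 times (3.83 to 5.55) that of CantonS. The extent of both 2R clusters was set after their values were seen. Each took in consecutive peaks around the call with a positive difference and an unadjusted p under 0.05 (edgeR). Their signs and summed ratios are therefore a description only, and only 1 peak in each passed the threshold. In the cluster of 7 peaks, the tumors had 24.1 to 79.6 CPM and the Upd discs 64.2 and 69.5 CPM, against 7.86 to 25.5 CPM in the other wild types.

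The rule for naming 10 peaks per direction was filled, for the higher direction, with 7 peaks that did not pass the threshold. Their adjusted p lay between 0.0114 and 0.0479 and their log2 difference between 1.73 and 3.08. The first of these, at 2L 22112997 to 22113299, had 153 reads in FRT82 against 33 and 16 in ATAC-seq and 85 against 74 in FAIRE-seq. The peak at 3L 12794902 to 12795218 had 238 against 85 and 58, and 132 against 94. In CPM it had 32 against 11.3 and 9.49 in ATAC-seq and 47.8 against 13.2 in FAIRE-seq, and the groups did not overlap in either technique. The other 5 lay in the 2R cluster of 7 peaks (at 993619 and 994693) and on 3L (at 10213198, 648025 and 1869324). The 10 named lower peaks all passed, with 6 in the 3L block, 3 in the X block and the remaining one at 3L 3027797.

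FRT82 was the only strain measured by both techniques. The strains set against it differed, with DGRP-208 and Optix-GFP in ATAC-seq and CantonS in FAIRE-seq, so that technique and reference strain cannot be told apart. Across all 36506 peaks, the FRT82 difference in ATAC-seq and that in FAIRE-seq, which share no library, correlated with a Pearson r of 0.156 and a Spearman rho of 0.131. Peaks are not independent replicates, so no p-value is given. Without the 70 peaks of the 2 blocks, the peaks beside them and the 3 clusters on 2R, r was 0.134. Of 134 peaks with an ATAC-seq difference above 2 on the log2 scale in size, 82 had the same sign in FAIRE-seq (61.2%). Of 115 such peaks in FAIRE-seq, 88 had the same sign in ATAC-seq (76.5%), and 33 passed 2 in both with the same sign. These counts include peaks of the 2 blocks, which were chosen for low levels in both techniques. They were not repeated without the blocks, so that they do not show how far the techniques share a sign elsewhere. The spread of the differences was similar between strains, with an SD over peaks of 0.51 for FRT82 minus DGRP-208, 0.593 for FRT82 minus Optix-GFP and 0.569 for DGRP-208 minus Optix-GFP.

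**Figure D3:**
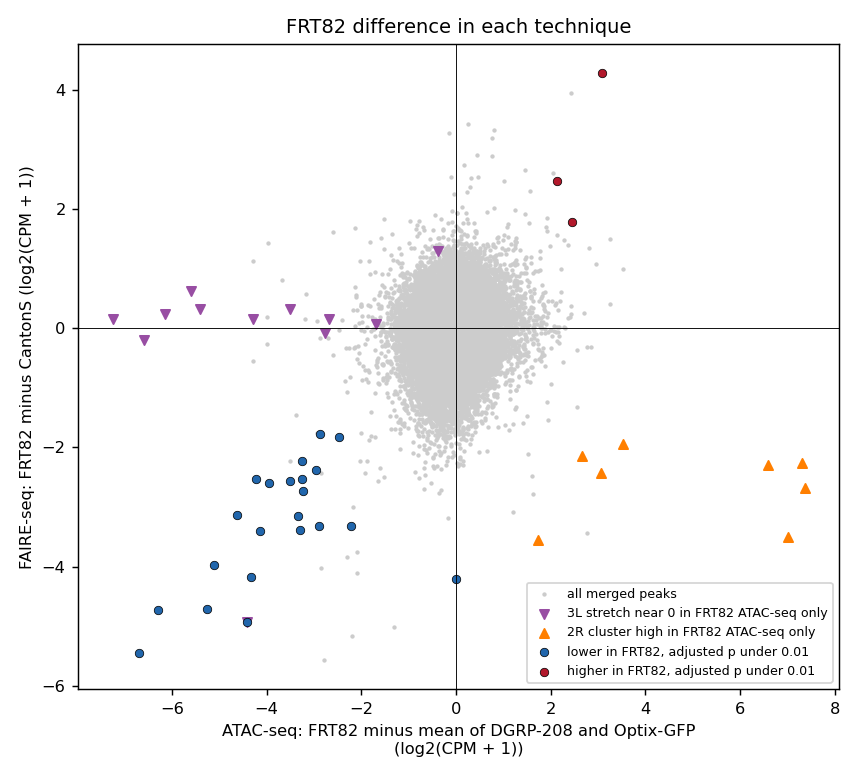
FRT82 difference (log2 of CPM plus 1) in ATAC-seq (x axis) and FAIRE-seq (y axis) for each of the 36506 merged peaks. Peaks called lower lie at the lower left, except for 1 at 0 on the x axis, the 3 called higher lie at the upper right, and the 3L stretch and the 2R cluster that differ between techniques lie along or across the axes.

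The interaction of strain and technique passed an adjusted p of 0.01 in 24 peaks (0.0657%) and an unadjusted p under 0.05 in 771. With 1 residual degree of freedom, the spread of each peak came from DGRP-208 and Optix-GFP alone, moderated over all peaks. Of the 24, 7 lay in the 3L stretch beside the block and 1 was the peak bordering the X block. Another 7 lay in a cluster on 2R from 937196 to 943155. The cluster was set from these same calls, as a chain of at least 3 of them on 2R with gaps of at most 10 kb. Its 7 calls and its ratios are therefore a description only. In the first peak of that cluster, the FRT82 ATAC-seq library had 9267 reads, DGRP-208 38 and Optix-GFP 87. In the same peak the FRT82 FAIRE-seq library had 5 reads and CantonS 220. FRT82 was thus the highest library of one technique and the lower one of the other. That peak held 9267 of the 16279 reads of the FRT82 ATAC-seq library in the 8 peaks of the cluster. The ratio of FRT82 to the other ATAC-seq libraries ran from 3.67 at 942820 to 326 at 938559. In FAIRE-seq FRT82 had 7.08% (4.41 to 10.8%) of the summed level of CantonS. Over the 8 peaks the FRT82 ATAC-seq library had 2190 CPM, DGRP-208 15.6 and Optix-GFP 30.1. The early and late tumor ATAC-seq libraries had 209 and 609 CPM, and the Upd discs 31.3 and 78.6 CPM. None of the 8 was called in the comparison over both techniques. The other 9 peaks were single. At 2L 9812126 to 9812385 FRT82 had 0 reads against 117 and 134 in ATAC-seq, and 55 against 61 in FAIRE-seq. At 2R 8453283 to 8453412 reads were found in the FRT82 ATAC-seq library (43) and in CantonS (70), and 0 in the 9 other open chromatin libraries.

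Arm 3R, which carries the FRT82 site, held none of the 25 calls. Only 0.0685% of all peaks were called, and 18 of the 25 lay in the blocks on 3L and X, so that nothing is read from this count. Among its 8433 peaks the lowest adjusted p was 0.0505 (edgeR). An unadjusted p under 0.05 was found in 349 (4.14%), 183 higher and 166 lower, beside 4.96% of all peaks. Its median log2 difference was 0.06, as on 3L (0.06) and close to those of 2L (0.05) and 2R (0.03). The lowest median was that of X, at -0.22, and 75.3% of its 6441 peaks below 0. On X, 471 peaks (7.31%, beside 4.96% of all peaks) had an unadjusted p under 0.05, 100 higher and 371 lower. The median on X was -0.31 in ATAC-seq and -0.06 in FAIRE-seq. Within ATAC-seq it was -0.22 against DGRP-208 and -0.38 against Optix-GFP. Without the FRT82 ATAC-seq library the X median was -0.03.

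The share of reads on X was 13.6% in the FRT82 ATAC-seq library, 16.6% in DGRP-208 and 18.2% in Optix-GFP, and 15.3% in the FRT82 FAIRE-seq library against 16.3% in CantonS. FRT82 was the lower in both techniques. The early and late tumor libraries had 13.8 and 15% in ATAC-seq and 17.4 and 17.7% in FAIRE-seq, and the Upd libraries 17.8 and 18.3%. The FRT82 ATAC-seq library thus had the lowest share of the 11. Chromosome 4 had a median of -0.15 over 374 peaks, with -0.11 in ATAC-seq and -0.17 in FAIRE-seq. Its ATAC-seq median was 0.05 against DGRP-208 and -0.30 against Optix-GFP, so that the strains set against FRT82 were on either side of it.

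**Figure D4:**
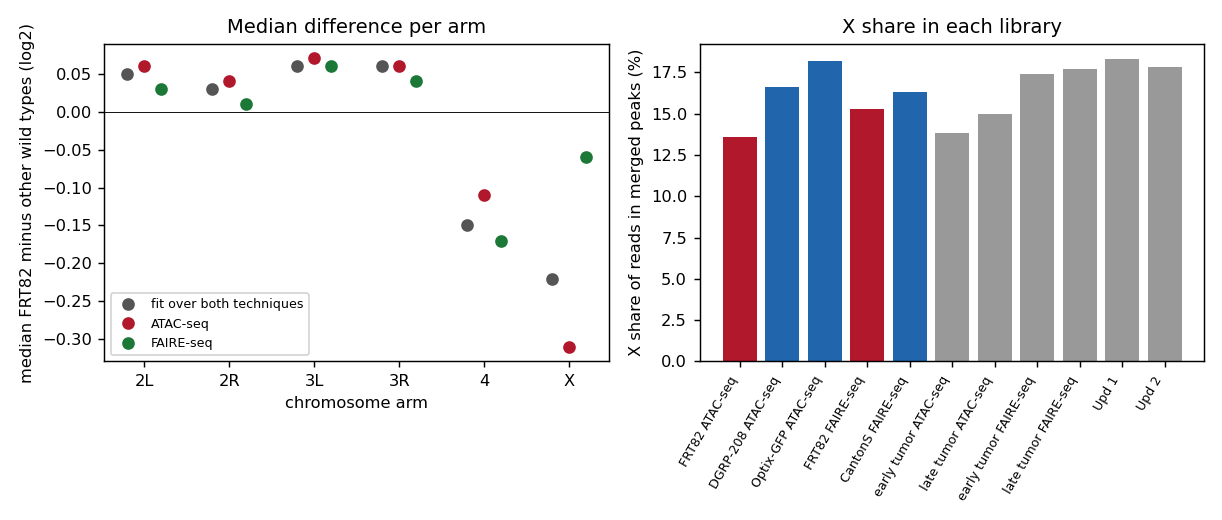
Left, median log2 difference of FRT82 from the other wild types on each chromosome arm, over both techniques and in each; right, share of reads in merged peaks that fall on X in each of the 11 libraries, with FRT82 in red, the other wild types in blue and the rest in grey. The X median is -0.31 in ATAC-seq and -0.06 in FAIRE-seq, and the X share runs from 13.6 to 18.3%.

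Peaks that the study's region tables pair with genes held none of the calls, beside 0.0685% of all peaks called, so that nothing is read from this count. Of 485 such peaks, 18 (3.71%) had an unadjusted p under 0.05, beside 4.96% of all peaks, and their median log2 difference was 0.10 against 0.00 over all peaks. Of the 94 genes on the lists used here, 29 were paired with 28 merged peaks. None of the 28 passed the threshold or had an unadjusted p under 0.05, and their log2 differences ran from -0.71 to 0.54 with a median of 0.00.

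Among the retinal determination genes, *eya* had a log2 difference of 0.13 ± 0.28 (SE), *so* of -0.05 ± 0.27 and *dac*, a nuclear cofactor, of -0.35 ± 0.31. The peaks of genes of photoreceptor and neuronal differentiation were *klu* with 0.31, *gl*, a zinc finger factor of photoreceptor fate, with 0.27 and *sens* with 0.53. Only 3 of the 12 genes on that list had a paired peak. In all 3, FRT82 was on the higher side in both techniques, as it was in 6412 of all 36506 peaks. The margin at *gl* was small, with 23.8 against 22.6 and 13.6 CPM in ATAC-seq and 11.6 against 11.1 CPM in FAIRE-seq. The test was not passed (lowest adjusted p 0.974, edgeR). The peak of *hth*, a homeodomain factor of antenna and progenitor fate, differed by -0.12 and that of *Dll*, which patterns the distal antenna, by -0.08.

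The 6 peaks of ecdysone response genes had a median of 0.08. The largest of their differences was at the peak that the tables give to both *ImpE2* and *Eip63E* (0.49 ± 0.24 SE), with 122 CPM in FRT82 against 82.6 and 100 CPM in ATAC-seq and 54 against 36.3 CPM in FAIRE-seq. The 8 peaks of JAK/STAT and JNK genes had a median of 0.00, from -0.71 at *upd2*, a cytokine ligand, to 0.54 at *Ilp8*, a relaxin-like peptide that delays pupariation. In FRT82 the *upd2* peak had 9 reads against 22 and 10 in ATAC-seq and 3 against 9 in FAIRE-seq, which is too shallow to show a difference of this size. The peak of *y*, a body pigment gene whose symbol is in the stock list but not the label of FRT82, had 6.72 CPM in FRT82 against 9.67 and 17 CPM in ATAC-seq, and 17.4 against 9.01 CPM in FAIRE-seq. Its strain difference thus had opposite signs in the 2 techniques (-0.13 ± 0.47 SE over both). The stress-related peaks were *Cyp18a1*, an ecdysone-degrading enzyme, with -0.39 and *Hsp27*, a small chaperone, with 0.42. The 2 peaks on the list of dosage compensation and sex, at *fru* and *dsx*, differed by -0.23 and -0.05.

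The 25 called peaks were of common width and overlapped CTCF peaks at a share close to the background. Their median width was 304 bp against 269 bp over all peaks, and the median of their mean count was 46.6 reads against 77.2. A CTCF peak overlapped 2 of them (8%), against 8.19% of all merged peaks. Both FRT82 libraries were at 0 reads in 11 of the 25, and in 26 of all 36506 peaks. In 24 of the 25, each FRT82 library was on the same side of all other strains of its technique, which was also the case for 12877 peaks in all (35.3%). The calls were made from these same reads, so that the peaks at 0 reads and the side of FRT82 are a description only.

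The authors' peak lists, called by them in each sample, were made from the same reads as the counts. They held 24875, 23418 and 22750 ATAC-seq peaks in FRT82, DGRP-208 and Optix-GFP, and 17138 and 20557 FAIRE-seq peaks in FRT82 and CantonS. Of 29100 merged peaks that overlap at least 1 bp of any list, 10740 were in all 5. Merged peaks in both FRT82 lists and in none of the others numbered 119, and 84 were in the 3 other lists and in neither FRT82 list. These 2 sets were chosen by the same reads, so that the sign of their differences is a description only, above 0 in 119 of the 119 and in 0 of the 84. Depth differed between these libraries, and its part in the number of peaks called was not tested.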

How the data were processed

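The series holds 13 samples, of which 11 measure open chromatin, 1 is a CTCF ChIP-seq sample and 1 its input, for which no file was used. The authors mapped reads to dm3 with Bowtie2, called peaks in each sample with MACS2, joined these into 1 merged list, and used HTSeq for the number of reads in each merged peak. They deposited raw counts without normalization, and peak lists as starts and ends with no score. CASAVA 1.8.2, SAMtools, DESeq2 and bedtools stand in the submitters' processing notes as well. Positions are given in dm3, counted from 1. Other per-sample columns were not found.

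The test of counts was that of edgeR 4.0.16 (R 4.3.3, TMM, robust quasi-likelihood F-test, FRT82 and technique as terms, threshold adjusted p of 0.01). The main fit had 2 residual degrees of freedom. All 36506 peaks had reads in these samples. CPM used TMM factors from the 11 libraries, and differences within a technique used log2 of CPM plus 1. Ratios of counts have 95% exact binomial intervals (scipy 1.17.1). A 0 was set to 3 reads per library for bounds. The test of the FRT82 term was checked on simulated counts, while the interaction test was not. Figures used matplotlib 3.10.9.

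Named peaks were the 10 in each direction with the largest log2 difference past the threshold, with at least 10 reads on average and FRT82 on 1 side in both techniques. Where fewer passed, those with the lowest p filled the rule. Peaks of listed genes were added where the study's region tables pair the 2. No peak was paired with a gene by position, since no dm3 annotation was used here. The comparison and the lists were chosen with earlier results of these data known. Alternatives were DESeq2 1.42.0, other scaling, filters, samples, thresholds and the omission of each library.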

Additional observations from a re-analysis of the deposited data

Results flagged for a closer look

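The strain difference itself differed between the techniques in 24 peaks at an adjusted p of 0.01 (edgeR interaction term, FAIRE-seq difference minus ATAC-seq difference on the log2 scale). Fitted values at peaks with 0 reads in a library depend on the prior count and are no bounds. In the 2R cluster the values were -11.08 at 937196, -11.15 at 938057, -11.05 at 938224, -12.62 at 938559, -11.58 at 941224, -6.10 at 941937 and -5.80 at 942820. In the 3L stretch beside the block they were 8.44 at 61878, 9.39 at 62948, 10.13 at 68418, 7.30 at 69096, 12.14 at 70688, 9.70 at 73180 and 8.63 at 74021. The peak bordering the X block had 8.40. On 2R, 3 single peaks had -17.09 at 8453283, 4.67 at 10760840 and 4.57 at 670306. On 2L, 4 had 11.10 at 9812126, 8.95 at 19337763, -6.30 at 5370076 and 9.87 at 9898568. On X, 2 more had 4.81 at 20780814 and 6.52 at 11493762. FRT82 was lower in ATAC-seq than in FAIRE-seq, relative to the other strains, in 15 of the 24. The FRT82 libraries of each technique were separate libraries. They were also set against different strains, DGRP-208 and Optix-GFP in ATAC-seq and CantonS in FAIRE-seq. Whether the animals, the techniques or these other strains differed cannot be told apart. At 2L 19337763 CantonS had 0 reads and the FRT82 FAIRE-seq library 24. The ATAC-seq libraries of FRT82, DGRP-208 and Optix-GFP had 85, 114 and 65 there.

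The peak at X 13896, which had no read in DGRP-208, Optix-GFP and CantonS, had reads in libraries that the comparison did not use. These were 48 (early tumor ATAC-seq), 104 (late tumor ATAC-seq), 146 (early tumor FAIRE-seq), 144 (late tumor FAIRE-seq), 15 (first Upd library) and 15 (second Upd library).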

How the results depend on the processing

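The number of peaks higher in FRT82 (3) became 11 at an adjusted p of 0.05, 6 with the Wald test of DESeq2 (2 of the 3 among them), 0 without the technique term and 25 in ATAC-seq samples only. That of lower peaks (22) became 0 without the technique term, 46 in ATAC-seq only and 13 in a fit of all 11 open chromatin samples, and all 13 were among the 22. Leaving out each library in turn gave 3 to 24 higher and 7 to 45 lower peaks. Without Optix-GFP all 22 lower and 3 higher calls were kept, and without the FRT82 ATAC-seq library 6 of the 22 and 1 of the 3. The cause was not tested. The interaction count of 24 kept within 1.5 times under both other scalings. Total counts moved the arm medians to -0.01 (2L), -0.02 (2R), 0.01 (3L), 0.01 (3R) and -0.20 (chromosome 4), and that of all peaks to -0.05. When each library was left out, the medians ran from 0.02 to 0.06 on 2L, 0.02 to 0.05 on 2R, 0.05 to 0.09 on 3L, 0.04 to 0.07 on 3R, -0.27 to -0.09 on chromosome 4 and -0.37 to -0.03 on X. The correlation of the techniques was 0.199 with a pseudocount of 0.1, 0.139 with DGRP-208 alone and 0.131 with Optix-GFP alone. A 40% overlap gave 144 and 89 peaks in place of 119 and 84. Of the 13 named peaks that were called, 9 lost the call without the FRT82 ATAC-seq library and 13 without the technique term. Over all named peaks, 591 values under the alternatives kept direction and side of the threshold (352 of them at peaks of listed genes, none of which was called), 29 lost the call, 12 gained it, and 39 changed sign without a call on either setting. No paired analysis was possible because the labels give no replicate numbers that the strains share. The depth of the FRT82 FAIRE-seq library limits what can be seen in weak peaks.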
